A study of Mus musculus with 6 samples.

Results

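Syndecans and glypicans are the core proteins that hold heparan sulphate chains at the cell surface. All 10 mouse genes of these families, Sdc1 to Sdc4 and Gpc1 to Gpc6, were taken by gene symbol from count tables of 23420 genes. The tables come from RNA-seq of E14.5 lacrimal gland epithelium, isolated from flash frozen embryos by laser capture microdissection. There were 3 control libraries, labelled Le-Cre, and 3 Pea3 TKO libraries, labelled Le-cre, Pea3-/-, Ermfl/fl, Er81fl/fl, all of mixed background. Both groups therefore carried Le-Cre, a transgene that drives Cre recombinase in the ocular surface ectoderm from which the gland buds. In Pea3 TKO the Erm (Etv5) and Er81 (Etv1) alleles were removed where Le-Cre was active, whereas the Pea3 (Etv4) null allele was present in the whole embryo. No source states whether a library came from 1 embryo or from several, so the p-values measure the spread between these libraries. The comparison asks which carriers of heparan sulphate depend on the Pea3 transcription factors, since heparan sulphate takes part in FGF reception in this gland.

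A syndecan spans the membrane and ends in a short cytoplasmic tail that binds scaffold proteins. A glypican has no such tail and is tethered to the outer leaflet by a glycosylphosphatidylinositol (GPI) anchor. Both carry heparan sulphate, which binds FGF ligands, including Fgf10, and presents them to FGF receptors. Sdc1 is the typical syndecan of epithelia, Sdc4 sits in focal adhesions, Sdc3 is best known from neural tissue and cartilage, and Sdc2 from mesenchymal cells. Gpc3 is the X-linked gene mutated in Simpson-Golabi-Behmel overgrowth syndrome, and its neighbour Gpc4 is X-linked too.

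Total counts ran from 14194775 to 17860140 per library, and 3 counts, the limit set for detection, corresponded to between 0.169 and 0.21 CPM (read counts scaled to the size of each library, by the TMM method of edgeR; this limit covers counting error only). The targeted genes fell in every Pea3 TKO library. Etv5 dropped from a control range of 961 to 1202 CPM to a range of 88.2 to 177, and Etv4 and Etv1 likewise showed no overlap between groups. Reads of Etv4 remained, at 10.9 to 28.4 CPM in Pea3 TKO against 129 to 184 CPM in controls. Sex-linked transcripts differed between the libraries. The summed CPM of the Y-linked genes Ddx3y, Eif2s3y, Kdm5d and Uty was between 136 and 175 in the 3 controls and 139 in Pea3 TKO replicate 3, but 0.445 and 0.21 in Pea3 TKO replicates 1 and 2. Xist, the transcript of the inactive X chromosome, was at 106 and 32.5 CPM in these same 2 libraries and at most 0.436 CPM elsewhere. All controls thus carried Y-linked transcripts, and only 1 Pea3 TKO library did. Epithelial identity was plain in both groups, as a list of 10 epithelial markers summed to between 3543 and 4313 CPM in controls and between 6121 and 7081 CPM in Pea3 TKO. Of these 10 markers, 7 were increased, among them Cdh1 (E-cadherin) and Pax6, and none decreased. Over all tested genes, 13.6% were increased and 11.3% decreased by the same test, given below.

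Of the 10 genes, 9 passed the low-count filter. By the edgeR quasi-likelihood test with Benjamini-Hochberg adjustment over 13087 genes, 4 of these 9 passed an adjusted p threshold of 0.05. Sdc1 was increased, and Sdc3, Gpc3 and Gpc6 were decreased. Over all tested genes 25.0% passed, 13.6% of them as increases and 11.3% as decreases on the same base. The median log2 fold change was -0.21 over the 9 genes and 0.0094 over all tested genes. In 4 of the 9 the libraries of the 2 groups did not overlap, namely Sdc1, Sdc3, Gpc3 and Gpc4, of which 1 was above and 3 below the controls. Among all tested genes 43.9% did not overlap, 22.5% above and 21.3% below, so such separation was about as frequent elsewhere in the transcriptome. The share of all genes that passed was near that of the main test with other size factors (24.9% and 24.3%) and with DESeq2 (27.1%). The same held with at least 1 CPM in 3 samples (25.9%) and with a replicate block (24.4%). Without the low-count filter the share was lower, 19.1% of 16893 genes. With Y-linked expression as a covariate it was 5.94%. Shares were between 14.4% and 25.0% when 1 library was left out.

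**Figure D1:**
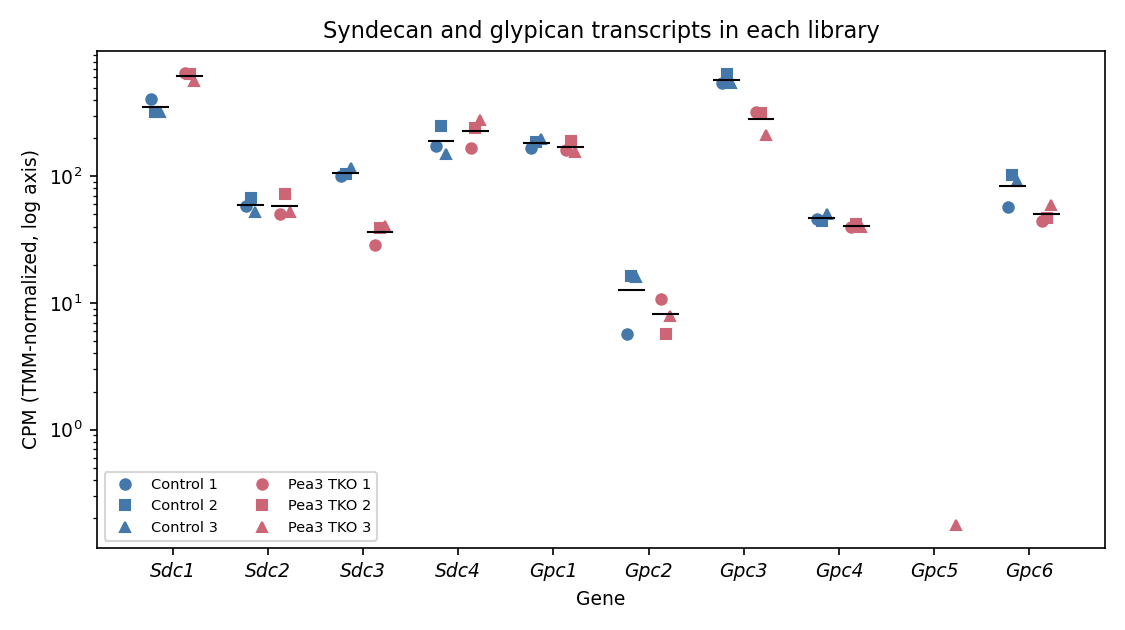
TMM-normalized CPM (log axis) of each of the 10 genes in every library, with 1 symbol per replicate number and a horizontal bar at the mean of 3 libraries; zeros cannot be drawn. Sdc1 lies higher and Sdc3 and Gpc3 lower in all 3 Pea3 TKO libraries, and Gpc5 appears in 1 library only.

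Gpc3, whose protein binds Wnt, Hedgehog and FGF ligands, was per kilobase the most abundant of these transcripts in the control bud. It lies on chromosome X from 52272426 to 52613950 on the minus strand (GRCm38). Control libraries held 547, 641 and 545 CPM, and Pea3 TKO libraries held 322, 314 and 210.0 CPM. Every Pea3 TKO library was below every control. The mean fell from 577 ± 54.7 to 282 ± 62.3 CPM (SD, n = 3 each), a 2.05-fold decrease. The log2 fold change was -1.03 (SE 0.17, edgeR quasi-likelihood adjusted p = 0.00237). Its neighbour Gpc4, a glypican found in many embryonic epithelia, begins 107.2 kb away on the same strand. Gpc4 had 45.9, 44.2 and 50.0 CPM in controls and 39.7, 41.8 and 39.6 CPM in Pea3 TKO. These groups did not overlap, but the difference was small and missed the threshold, with a log2 fold change of -0.21 (95% interval from -0.52 to 0.10, edgeR quasi-likelihood adjusted p = 0.30).

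Because both genes are X-linked and the groups differed in sex-linked transcripts, Gpc3 and Gpc4 were also read within the libraries that carried Y-linked transcripts. There, Pea3 TKO replicate 3 had the lowest Gpc3 value of all 6 libraries. The log2 fold change of Gpc3 over these 4 libraries (3 control, 1 Pea3 TKO) was -1.45 (SE 0.16, edgeR quasi-likelihood adjusted p = 0.00743), whereas 4.32% of all genes passed in that smaller comparison. For Gpc4 it was -0.23 and did not pass. The single Pea3 TKO library in this comparison is assumed to vary as the controls do. Without it, when both remaining Pea3 TKO libraries lacked Y-linked transcripts, the log2 fold change of Gpc3 was -0.86 (SE 0.13, edgeR quasi-likelihood adjusted p = 0.00268). Over all fits with 1 library left out, the log2 fold change of Gpc3 ranged from -1.14 to -0.86, so the decrease was smallest without Pea3 TKO replicate 3. Pea3 TKO replicates 1 and 2 also had the highest sums of mesenchyme markers, given below. The parts of sex and of mesenchyme in the decrease were not tested and cannot be told apart between these libraries.

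**Figure D2:**
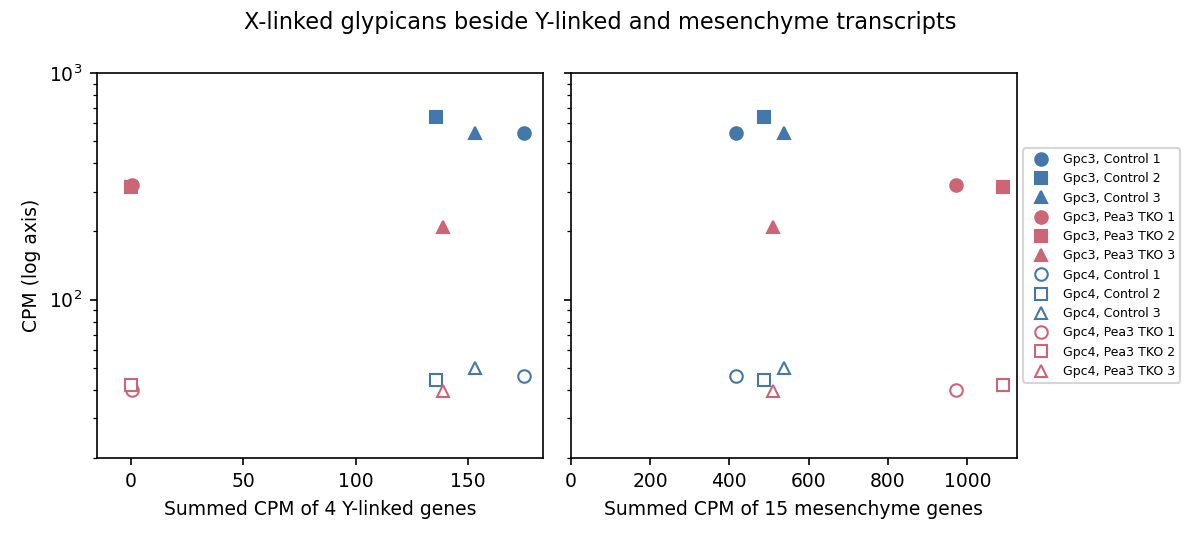
CPM (log axis) of Gpc3 (filled) and Gpc4 (open) in each library against the summed CPM of 4 Y-linked genes (left) and of 15 mesenchyme genes (right); colour gives the group and the symbol the replicate number. Pea3 TKO replicate 3 lies among the controls on both horizontal axes, the right one being mostly Foxc1, Fn1 and Vim in that library, and has the lowest Gpc3 value, 210.0 CPM, while Gpc4 stays between 39.6 and 50.0 CPM throughout.

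Gpc6, a glypican needed for growth of the long bones, was decreased less firmly. It extends over 1051.2 kb of chromosome 14, from 116925315 to 117976544. Controls had 57.0, 102 and 90.8 CPM, and Pea3 TKO libraries had 44.5, 46.6 and 59.0 CPM. The lowest control lay below the highest Pea3 TKO library, so the groups overlapped. The mean fell from 83.4 ± 23.5 to 50.0 ± 7.84 CPM (SD, n = 3 each), with a log2 fold change of -0.74 (SE 0.22, edgeR quasi-likelihood adjusted p = 0.0332). By the same test the call was lost without control replicate 2 (adjusted p = 0.132), control replicate 3 (0.101), Pea3 TKO replicate 1 (0.112) or Pea3 TKO replicate 2 (0.116), where 14.6%, 14.4%, 17.0% and 15.4% of all genes passed. It was kept without Pea3 TKO replicate 3, where 22.4% passed, and without control replicate 1. It was also lost in the libraries with Y-linked transcripts, where the log2 fold change was -0.49.

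The other glypicans gave no call. Gpc1, the second most abundant of the family and a lipid-raft FGF co-receptor, had 167, 184 and 196 CPM in controls and 160, 190.0 and 156 CPM in Pea3 TKO. The groups overlapped, and the log2 fold change was -0.11 (95% interval from -0.39 to 0.16). Exons of Ankmy1 on the opposite strand cover 18.9% of the Gpc1 exonic bases, and whether counting used strand is not given in the sources used here. Gm43720, a gene model on the same strand that has no row in the tables used, covers 55.6% of the Gpc2 exonic bases, so the Gpc2 count is uncertain. Gpc2, known from developing neurons, was low and uneven, with 5.69, 16.4 and 16.1 CPM in controls and 10.7, 5.73 and 7.93 CPM in Pea3 TKO. Its log2 fold change of -0.65 had a 95% interval from -1.60 to 0.30. Without control replicate 1 the log2 fold change was -1.0 with an edgeR quasi-likelihood adjusted p = 0.0473, where 25.0% of all genes passed. With any other single library left out, Gpc2 did not pass. Gpc5 was not tested. It had 0 counts in all 3 controls and in Pea3 TKO replicates 1 and 2, and 3 counts in Pea3 TKO replicate 3, so it was at or under the detection limit in every library.

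Among the syndecans, Sdc1 and Sdc3 moved in opposite directions. Sdc1 lies on chromosome 12 from 8771323 to 8793715. It had 408, 322 and 322 CPM in controls and 647, 638 and 566 CPM in Pea3 TKO. Each Pea3 TKO library exceeded each control. The mean rose from 351 ± 49.6 to 617 ± 44.6 CPM (SD, n = 3 each), a 1.76-fold increase with a log2 fold change of 0.81 (SE 0.13, edgeR quasi-likelihood adjusted p = 0.00222). With Y-linked expression as a covariate the log2 fold change was 0.70 and the adjusted p of the same test 0.056, while the share of all genes that passed dropped to 5.94%. Markers of epidermis and conjunctiva moved along with Sdc1. All 12 of that list were increased, beside 13.6% of all tested genes. The summed level of the list was between 876 and 2154 CPM in controls and between 6292 and 8715 CPM in Pea3 TKO. Krt14 (keratin of basal epidermis) is an example, at 88.2 ± 13.7 CPM in controls and 610 ± 160 CPM in Pea3 TKO (SD, n = 3 each). By staining or in situ hybridization, the paper found Krt14, Krt5, Sfn and Krt7 within the lacrimal gland primordia of Pea3 TKO. Whether Sdc1 rose in the same cells was not tested.

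Sdc3 showed the largest change of the families. It lies on chromosome 4 from 130792537 to 130826319. Controls held 100.1, 103 and 116 CPM, and Pea3 TKO libraries held 28.5, 39.2 and 40.2 CPM. The groups were far apart, with the highest Pea3 TKO library below each control. The mean fell from 106 ± 8.30 to 36.0 ± 6.48 CPM (SD, n = 3 each), a 2.96-fold decrease with a log2 fold change of -1.56 (SE 0.16, edgeR quasi-likelihood adjusted p = 0.000257). Ordered by p, Sdc3 was number 130 of 13087 tested genes, Sdc1 number 607, Gpc3 number 634 and Gpc6 number 2710. In the libraries with Y-linked transcripts the log2 fold change of Sdc3 was -1.39 (edgeR quasi-likelihood adjusted p = 0.0161). Neural and Schwann cell transcripts were scarce in all libraries, where a list of 6 summed to at most 2.82 CPM.

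Sdc4 and Sdc2 did not pass. Sdc4, which couples integrin adhesions to protein kinase C, had 174, 247 and 151 CPM in controls and 166, 239 and 276 CPM in Pea3 TKO. These ranges overlapped widely, and the log2 fold change of 0.25 had a 95% interval from -0.24 to 0.74. For Sdc2, the values were 58.2, 67.1 and 52.3 CPM in controls and 50.2, 71.8 and 52.3 CPM in Pea3 TKO. Its log2 fold change was -0.027, with a 95% interval from -0.42 to 0.36.

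**Figure D3:**
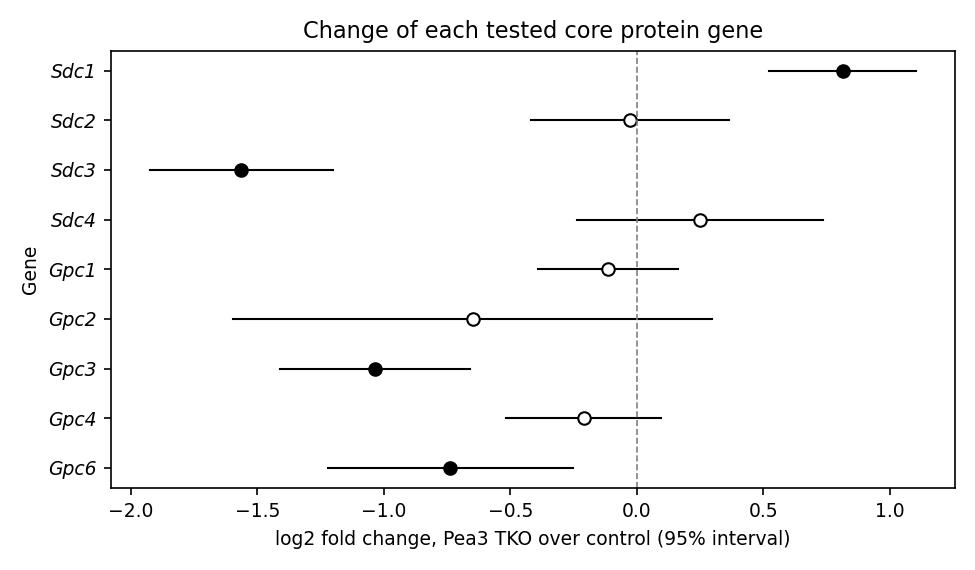
Log2 fold change of Pea3 TKO over control with its 95% interval for the 9 tested genes, filled where the adjusted p of the edgeR quasi-likelihood test was under 0.05. Sdc1 is the only filled point to the right of 0, and Sdc3, Gpc3 and Gpc6 are the filled points to the left.

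Levels of different genes were compared as CPM per kilobase of exonic sequence (GENCODE M21). In controls, Gpc3 led with 215 ± 20.3 CPM per kb (SD, n = 3), a level above 98.7% of the tested genes with a known length. Sdc1 followed with 92.1 ± 13.0 and Sdc4 with 74.9 ± 19.8 CPM per kb, and these overlapped each other. Gpc1 had 35.4 ± 2.87 CPM per kb. Sdc3, Gpc4 and Sdc2 were alike, with 17.8 ± 1.39, 17.6 ± 1.12 and 16.8 ± 2.10 CPM per kb. Gpc6 (13.0 ± 3.66 CPM per kb) overlapped Sdc2, and Gpc2 was far lower at 2.98 ± 1.43 CPM per kb. With the longest transcript as the length, Gpc6 stood at 20.1 CPM per kb, above Gpc4 and Sdc2, while Gpc3, Sdc1, Sdc4 and Gpc1 held the same places.

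In Pea3 TKO the order at the top was different. Sdc1 led with 162 ± 11.7 CPM per kb (SD, n = 3), ahead of Gpc3 with 105 ± 23.2 and Sdc4 with 89.1 ± 22.0 CPM per kb, which overlapped. Gpc1 kept its place at 32.7 ± 3.61 CPM per kb. Sdc2 and Gpc4 overlapped at 16.5 ± 3.38 and 15.2 ± 0.468 CPM per kb. Sdc3 had dropped to 6.01 ± 1.08 CPM per kb, below all levels of Gpc6 (7.78 ± 1.22 CPM per kb).

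As a share of the summed level per length, the glypicans made up 55.8%, 58.7% and 60.9% of the core protein transcripts in controls and 40.8%, 38.2% and 32.6% in Pea3 TKO. The glypican share was larger than the syndecan share in every control and smaller in every Pea3 TKO library. Gpc3 alone accounted for 44.2% ± 1.03 of the controls and 23.9% ± 4.57 of Pea3 TKO (SD, n = 3 each). Sdc1 accounted for 19.1% ± 3.38 and 37.2% ± 2.10, respectively. The summed level of all 10 genes changed little beside this, from 485 ± 38.3 to 436 ± 27.6 CPM per kb (SD, n = 3 each), and the groups overlapped. These shares follow from the changes in Sdc1 and Gpc3 and are given as a description.

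**Figure D4:**
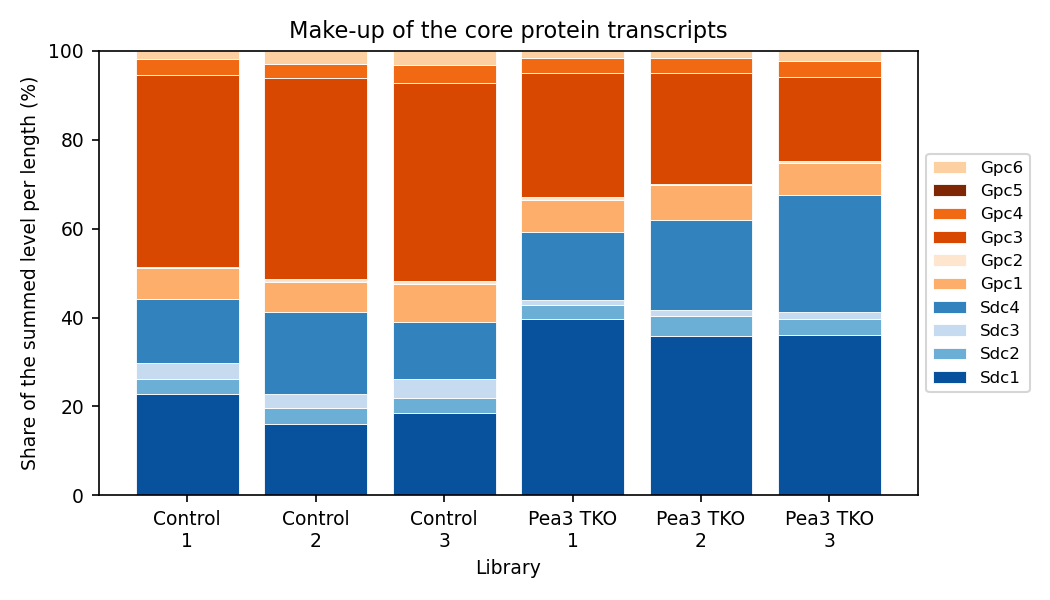
Share (%) of each gene in the summed CPM per kb of the 10 genes, in every library; syndecans are in blue and glypicans in orange. Gpc3 is the largest segment in each control (43.1% to 45.1%), and Sdc1 is the largest in each Pea3 TKO library (35.9% to 39.6%).

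Ratios of CPM per kb within a library are free of scaling between libraries. Sdc1 exceeded Sdc3 by a factor of 4.38 to 6.41 in controls and of 22.1 to 35.7 in Pea3 TKO. The ratio of Sdc1 to Gpc3 was between 0.355 and 0.527 in controls and between 1.42 and 1.90 in Pea3 TKO. The ratio of Gpc3 to Gpc4, its neighbour, was between 10.7 and 14.3 in controls and between 5.22 and 7.98 in Pea3 TKO. These ratios were chosen after the values had been seen. For each, the groups did not overlap. The two-sided exact permutation test gave p = 0.10 each time, the smallest value possible with 3 samples against 3. For the ratios with Sdc1 this was fixed in advance, since Sdc1 was above and Sdc3 and Gpc3 below every control in Pea3 TKO. The test therefore adds nothing there. Since the ratio of Gpc3 to Gpc4 was also chosen on these values, its p-value is no independent evidence either. Replicates also differed in how evenly the genes were expressed. The coefficient of variation among controls was 6.35% for Gpc4, 7.81% for Sdc3 and 9.48% for Gpc3, but 26.4% for Sdc4, 28.2% for Gpc6 and 47.9% for Gpc2.

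Gpc3, Gpc6 and Sdc2 are also transcribed in mesenchyme, which surrounds the bud. Of 15 mesenchyme and fibroblast markers, 14 were tested. Among these, 2 (Dcn and Lum, both matrix proteoglycans) were increased and none decreased, beside 13.6% and 11.3% of all tested genes. Both calls were lost with a replicate block and without control replicate 2, Pea3 TKO replicate 1 or Pea3 TKO replicate 2. That of Lum was also lost without control replicate 1 and by DESeq2. With Y-linked expression as a covariate neither passed, at log2 fold changes of 0.25 for Dcn and -0.82 for Lum. The summed level of all 15 markers was between 416 and 537 CPM in controls, 971 and 1091 CPM in Pea3 TKO replicates 1 and 2, and 510 CPM in Pea3 TKO replicate 3. Foxc1, Fn1 and Vim, the 3 most abundant of the list in controls, made up most of these sums in the controls and in Pea3 TKO replicate 3. The other 12 markers, a division made after the values had been seen, summed to 21.9, 33.9 and 137 CPM in controls, to 421 and 587 CPM in Pea3 TKO replicates 1 and 2, and to 15.4 CPM in Pea3 TKO replicate 3. Of all 15 markers, 11 and 13 exceeded each control in Pea3 TKO replicates 1 and 2, whereas 8, among them Pdgfra, Col1a1 and Col3a1, were below each control in Pea3 TKO replicate 3. Some mesenchyme transcripts, such as Pdgfra, Col1a1 and Col3a1, were thus above each control in Pea3 TKO replicates 1 and 2 and below each in replicate 3. Others, such as Dcn, Lum and Vim, lay within the control range in Pea3 TKO replicate 3. Gpc3 was lower than each control in all 3 Pea3 TKO libraries. The part of mesenchyme in the glypican values was not tested. Endothelial markers were near 0, with a summed level of at most 7.76 CPM over 6 genes and no count of Emcn. Immune markers summed to at most 19.2 CPM. The erythroid list summed to at most 17.1 CPM, nearly all of it Alas2, since Hba-a1 and Hba-a2 had 0 counts in every library and the beta globin genes of the list were not analysed here, so the sum says little of red blood cells. Fewer cells of a type and less RNA per cell cannot be told apart in such bulk samples.

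Promoter sequences from RefSeq (GRCm38.p6) were available for 7 of the 10 genes, all but Sdc2, Gpc1 and Gpc6, and cover 250 bases before to 50 bases after a start. They were searched on both strands for GGAA, the core of ETS factor sites, and for CCGGAA, the core with the flank preferred by Pea3-type factors. Because CCGGAA contains GGAA, each match of the longer word is also one of the shorter. The stretches upstream of the first annotated start are shown for the 3 genes whose change was called and whose groups did not overlap, with GGAA, or TTCC where it lies on the other strand, in capitals. They are chr12:8771146-8771322 (plus strand), chr4:130792287-130792536 (plus strand) and chrX:52613975-52614224 (minus strand).
Sdc1: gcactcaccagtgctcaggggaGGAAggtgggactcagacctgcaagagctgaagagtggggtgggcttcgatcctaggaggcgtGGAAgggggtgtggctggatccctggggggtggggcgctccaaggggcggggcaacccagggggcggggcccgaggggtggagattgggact
Sdc3: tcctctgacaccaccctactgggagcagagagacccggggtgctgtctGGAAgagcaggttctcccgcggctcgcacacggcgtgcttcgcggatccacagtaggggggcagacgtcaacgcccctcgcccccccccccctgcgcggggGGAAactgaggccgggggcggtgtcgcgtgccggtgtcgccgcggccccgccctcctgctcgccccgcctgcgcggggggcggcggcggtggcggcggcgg
Gpc3: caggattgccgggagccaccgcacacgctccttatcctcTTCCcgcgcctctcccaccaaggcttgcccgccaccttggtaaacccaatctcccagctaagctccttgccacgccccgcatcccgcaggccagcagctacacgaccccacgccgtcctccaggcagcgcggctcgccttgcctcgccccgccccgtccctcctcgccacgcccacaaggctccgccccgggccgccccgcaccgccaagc

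GGAA was present in all 7 windows, as it was in 96.0% of 32841 promoter windows of the same length. CCGGAA was present in 1 of the 7, that of Sdc4, and in 14.9% of all windows. In Sdc4 the match is on the opposite strand, at the capitals in the 30 bases of chr2:164443247-164443276 (minus strand).
Sdc4: ttcccgggggaaTTCCGGgcggtgcgggcg
Sdc4 was not among the genes that passed the threshold. The windows of Sdc1, Sdc3 and Gpc3 held no CCGGAA, which says only that these letters are absent from 300 bases around a start.

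Other genes around the core proteins were examined through lists. Their counts are to be read beside the 25.0% of all tested genes that passed. Among 10 further heparan sulphate carriers in the matrix or at the surface, 8 were tested, 1 was increased and 1 decreased. Cd44, a hyaluronan receptor that carries heparan sulphate in some isoforms, rose from 1.70 ± 1.42 to 22.7 ± 11.4 CPM (SD, n = 3 each), a log2 fold change of 3.73 (SE 0.78, edgeR quasi-likelihood adjusted p = 0.00795). Tgfbr3 (betaglycan), a co-receptor of TGF-beta, fell from 52.0 ± 17.9 to 23.7 ± 2.98 CPM, with a log2 fold change of -1.13. Neither Spock2 (testican, log2 fold change 1.18) nor Col18a1 (the basement membrane collagen that carries heparan sulphate, log2 fold change -0.18) passed. Col18a1 stayed abundant, with 407 ± 31.5 CPM in controls and 359 ± 44.9 CPM in Pea3 TKO.

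Core proteins can be released from the membrane or processed by proteases. Of 12 genes listed for this, 9 were tested, 1 was increased and 2 were decreased, beside 25.0% called over all tested genes. Mmp9, a gelatinase that sheds syndecans, rose from 0.393 ± 0.395 to 22.0 ± 12.2 CPM (SD, n = 3 each), and had 8.00, 28.2 and 29.8 CPM in the Pea3 TKO libraries against at most 0.789 CPM in controls. Adam10, a membrane sheddase, fell from 358 ± 75.0 to 238 ± 31.7 CPM. Pcsk6, a proprotein convertase, fell from 54.3 ± 19.2 to 15.4 ± 7.24 CPM, while its relative Pcsk5 had a log2 fold change of 0.56 with an edgeR quasi-likelihood adjusted p = 0.0516.

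For the cytoplasmic partners of syndecans, 12 of 13 genes were tested, 3 were increased and 1 was decreased. The share called over all tested genes, 25.0%, stands beside this list and the GPI anchor list below. The summed level of the list was between 1921 and 2168 CPM in controls and between 2482 and 2516 CPM in Pea3 TKO. Sdcbp (syntenin), a PDZ protein that binds the syndecan tail, rose from 321 ± 28.0 to 457 ± 42.1 CPM (SD, n = 3 each), a log2 fold change of 0.51. Ezr (ezrin), a linker of the membrane to actin, had a log2 fold change of 0.60, and Fyn, a Src-family kinase, one of 0.64. Cask, another PDZ partner of syndecans, fell from 132 ± 18.7 to 93.6 ± 13.6 CPM. Of 8 genes for attaching or remodelling the GPI anchor, 2 were increased and none decreased, namely Pgap1 (log2 fold change 1.11) and Pgap3 (1.05), which trim the anchor after its transfer. The transamidase subunits Pigt and Pigu did not pass, at log2 fold changes of 0.39 and 0.28. Of the 11 called genes named from these lists, only Mmp9 also passed with Y-linked expression as a covariate or within the libraries that carried Y-linked transcripts. When 1 library at a time was left out, between 6 and 11 of them passed. Cd44, Tgfbr3, Mmp9, Pcsk6, Ezr and Pgap3 passed in every such fit. Adam10, Sdcbp, Fyn, Cask and Pgap1 did not pass without control replicate 2, and Adam10 and Cask did not pass without control replicate 3, Pea3 TKO replicate 1 or Pea3 TKO replicate 2 either. The loss also met Sdcbp and Fyn without control replicate 3, Fyn and Pgap1 without Pea3 TKO replicate 1, Sdcbp and Pgap1 without Pea3 TKO replicate 2, and Cask without Pea3 TKO replicate 3.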

How the data were processed

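RNA was amplified and sequenced by the authors, who deposited, for every sample, a table of raw read counts by gene symbol without normalization. The submitters' processing notes name bcl2fastq 2.17, STAR 2.5.2b, featureCounts 1.5.0-p3, DESeq and mm10; the annotation and the strand setting are not given in the sources used here. From these counts, genes were kept by filterByExpr of edgeR 4.0.16 (R 4.3.3), scaled by TMM and tested by the quasi-likelihood test (condition only). Standard errors were obtained from the fold change and the F statistic, and intervals from the test's degrees of freedom. Levels per length use exonic lengths of GENCODE M21 (GRCm38, the assembly of mm10), matched by symbol for 94.3% of tested genes. Fits were tested on simulated counts with 200 changed genes. These had no sex-linked or mesenchyme differences between libraries, so they do not cover that feature of the data. Members and lists were chosen with earlier results of these data known. From each list, up to 4 genes of smallest p were named. Alternatives were other size factors, filters, DESeq2 1.42.0, a replicate block, a Y-linked covariate and leaving out each sample. The fit on libraries with over 10 CPM of Y-linked counts was chosen after seeing the data.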

Additional observations from a re-analysis of the deposited data

How the results depend on the processing

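Sdc3 and Gpc3 kept their direction and passed the threshold under all 14 alternatives, with log2 fold changes from -1.65 to -1.39 and from -1.48 to -0.86. Sdc1 passed in 12 of 14 and Gpc6 in 8 of 14. With Y-linked expression as a covariate, 492 genes were increased and 286 decreased, and of the syndecans and glypicans 0 were increased. The log2 fold changes were then 0.70 for Sdc1 (adjusted p = 0.056), -0.52 for Gpc6 (adjusted p = 0.399) and -0.82 for Lum, against 3.82 without the covariate. Over the libraries with Y-linked transcripts, 315 genes were increased and 282 decreased, and again 0 syndecans or glypicans were increased. The log2 fold changes were 0.70 for Sdc1 (adjusted p = 0.0625), -0.49 for Gpc6 (adjusted p = 0.46) and -0.71 for Lum. These p-values are from the edgeR quasi-likelihood test, 1 Pea3 TKO library enters the latter fit, and the cause of the differences was not tested. With the covariate, groups and Y-linked transcripts cannot be fully told apart, since no control library lacked such transcripts. Sdc2, which was not called, had a log2 fold change of 0.0084 under upper-quartile scaling.

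Without 1 sample at a time, between 1131 and 1948 genes were increased and between 799 and 1417 decreased. The log2 fold change then ranged from 0.75 to 0.94 for Sdc1, from -0.20 to 0.070 for Sdc2, from -0.95 to -0.56 for Gpc6 and from -1.0 to -0.43 for Gpc2. The replicate numbers showed no sign of pairing, as deviations from the group means correlated at 0.144, -0.064 and 0.0454 for same-numbered samples and only 2 of 6 samples correlated best with their own number. With the replicate block 3191 genes passed in place of 3268, and Sdc1, Sdc3, Gpc3 and Gpc6 stayed past the threshold, Gpc6 at -0.71 (edgeR quasi-likelihood adjusted p = 0.0216). The glypican share of the summed level was 60.3% in controls and 38.6% in Pea3 TKO with the longest transcript as the length. Gpc5 had too few counts to be tested. The spread between replicates and the overlap with Gm43720 limit Gpc2.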
